A study of Mus musculus with 12 samples.

Results

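Liver makes cholesterol from acetyl-CoA, and 27 genes of that route were followed by gene symbol in 12 RNA sequencing libraries of mouse liver: 18 enzymes of synthesis, 4 genes of the SREBP2 control system, 2 genes of intracellular transfer and esterification, and 3 efflux transporters. All 27 were found among the 48576 genes of the count tables, and all 27 passed the filter on low counts that left 17964 genes for testing. The genes were grouped by their role, and no measured value entered the rule that lists them, though earlier results of these data were known when they were listed. Livers came from 2 models of hepatocyte transgene expression. In the YAP model, mice with Col-TRE-YAPS127A and Rosa26-LSL-rtTA received an AAV in which the hepatocyte promoter TBG drives Cre, at 8 to 10 weeks of age, and doxycycline then induced YAPS127A, a form of the growth regulator YAP that resists inhibition. Induction lasted 2 weeks (n = 2 livers) or 4 weeks (n = 3), and the YAP controls had the same alleles without induction of the transgene (n = 2). The labels do not say whether these controls also received the AAV. In the YAP comparisons the transgene therefore cannot be told apart from the AAV and Cre, or from the doxycycline that induced it. For the MYC model, LAP-tTA, a liver-restricted activator that works without doxycycline, drove TRE-MYC once doxycycline was withdrawn from the mothers near embryonic day 8, and pups were sampled at 4 weeks of age (n = 3). The MYC controls carried LAP-tTA alone on that schedule (n = 2). The 2 models therefore differ in age, alleles and route of induction, and each is read against its own controls.

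The pathway condenses acetyl-CoA to mevalonate, builds farnesyl diphosphate, joins this to squalene, closes the ring to lanosterol and trims lanosterol to cholesterol. Its enzymes are transcribed under SREBP2, a membrane-bound factor that SCAP escorts out of the endoplasmic reticulum when sterols are scarce and that INSIG proteins hold back when sterols are plentiful. The liver also esterifies cholesterol for storage or lipoproteins, sends it into bile and loads it onto high-density lipoprotein. Levels are given as CPM, normalised read counts per 1000000 counts of a library scaled by edgeR's TMM factors, and log2 fold changes are given ± SE. A gene is said to rise or fall only where the Benjamini-Hochberg adjusted p of edgeR's quasi-likelihood test, over all 17964 genes, was under 0.05.

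Libraries held between 12511170 and 17690798 counts. The labels call the cells hepatocytes, whereas RNA was extracted from whole liver, and in such bulk samples fewer cells of a type and less RNA per cell cannot be told apart. All 10 hepatocyte markers examined were detected in every group. Xist and Y-linked genes gave a female pattern in 2-week replicate 2 and all 3 4-week libraries, and a male pattern in both YAP controls, 2-week replicate 1 and every MYC-model library. YAP controls against 4-week livers therefore also compared male with female patterns, and the 2 cannot be told apart beyond what the 2-week livers show. TMM factors ran from 0.742 in a YAP control to 1.35 in a 4-week liver. The labels do not say whether each replicate was a separate animal, so p-values measure the spread between these libraries.

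To show what precedes the genes on which the results turn, RefSeq promoter sequence on GRCm38.p6 is printed for Hmgcs1, Cyp51 and Sc5d, enzymes that fell in every comparison with controls, for Insig1 and Srebf2 of the control system, and for the stretch between Abcg5 and Abcg8. Capitals mark matches on either strand to TCACNCCAC, the sterol regulatory element, and to its core TCACNCCA. They also mark matches on either strand to CCAAT, the NF-Y box, and to GGGCGG, the Sp1 GC box. The Hmgcs1 run is chr13:119690101-119690350 on the plus strand, the Cyp51 run is chr5:4104747-4104947 on the minus strand, and the Sc5d run is chr9:42264301-42264550 on the minus strand. The Insig1 run is chr5:28071162-28071362 and the Srebf2 run is chr15:82147019-82147180, both on the plus strand, and the plus-strand stretch of 109 bases between the starts of Abcg5 and Abcg8 is chr17:84683012-84683120. Each is written 5′ to 3′. The Cyp51 and Insig1 runs leave out the 49 bases next to the RefSeq start, and the Srebf2 run the 88 bases next to it. An annotated exon lies in each part left out. These parts hold a CCAAT match of Cyp51 at -29 from its start, and GGGCGG matches of Srebf2 at -79, -52 and -34.
Hmgcs1: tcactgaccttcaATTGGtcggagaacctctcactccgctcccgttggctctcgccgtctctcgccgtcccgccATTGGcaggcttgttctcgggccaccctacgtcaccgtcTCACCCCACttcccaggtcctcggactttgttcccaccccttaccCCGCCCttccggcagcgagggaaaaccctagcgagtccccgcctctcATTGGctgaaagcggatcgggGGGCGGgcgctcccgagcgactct
Cyp51: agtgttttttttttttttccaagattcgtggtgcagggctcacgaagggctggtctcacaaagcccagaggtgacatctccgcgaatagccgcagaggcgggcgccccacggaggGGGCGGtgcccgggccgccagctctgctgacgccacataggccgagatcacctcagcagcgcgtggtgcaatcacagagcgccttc
Sc5d: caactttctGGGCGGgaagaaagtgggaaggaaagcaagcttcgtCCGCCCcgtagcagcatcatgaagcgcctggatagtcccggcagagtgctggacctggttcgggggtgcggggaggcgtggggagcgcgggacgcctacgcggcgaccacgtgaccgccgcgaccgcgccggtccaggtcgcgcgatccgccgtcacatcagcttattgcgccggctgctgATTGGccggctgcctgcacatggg
Insig1: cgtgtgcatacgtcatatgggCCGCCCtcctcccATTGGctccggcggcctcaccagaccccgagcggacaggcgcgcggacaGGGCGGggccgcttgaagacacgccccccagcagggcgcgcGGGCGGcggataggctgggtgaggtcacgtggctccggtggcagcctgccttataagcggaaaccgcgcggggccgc
Srebf2: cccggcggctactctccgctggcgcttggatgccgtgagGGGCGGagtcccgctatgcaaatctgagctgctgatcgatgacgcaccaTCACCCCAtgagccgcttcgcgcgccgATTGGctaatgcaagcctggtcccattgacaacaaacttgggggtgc
Abcg5-Abcg8: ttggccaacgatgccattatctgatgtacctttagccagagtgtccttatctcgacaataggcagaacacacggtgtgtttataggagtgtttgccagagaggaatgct

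Of the 27 genes, 22 had promoter windows in the RefSeq table, 29 windows in all, each of 250 bases before and 50 after a start. The full element TCACNCCAC was in 1 of the 29 windows, that of Hmgcs1, where it begins 137 bases before the start, against 1.24% of all 32851 windows. Its shorter core TCACNCCA, which lies inside the full element, was in 3 windows, those of Hmgcs1, Msmo1 and Srebf2, against 4.36% of all windows. CCAAT was in 19 of the 29 windows (65.5%, against 37.4% of all windows), and GGGCGG in 22 (75.9%, against 35.7%). The Hmgcs1 stretch holds 3 CCAAT matches and 2 GGGCGG matches beside its element, and the Insig1 stretch holds 1 CCAAT and 3 GGGCGG matches. The stretch between Abcg5 and Abcg8 held none of these. The windows of both genes overlap, and a CCAAT match just outside the stretch lies in both, so it counts for each. The 2 Scap windows likewise share a GGGCGG match. The LXR repeat, AGGTCA at a spacing of 4 bases from a second AGGTCA, was in no window of the 27 genes, against 0.0152% of all windows. A match describes the letters of the window and is not a measured binding site, and no match says only that these letters are absent there.

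After 2 weeks of YAPS127A, 19 of the 27 genes fell and none rose by edgeR. DESeq2 gave 20 lower and 0 higher, as did an unadjusted edgeR p under 0.05. Of all tested genes, 12.7% fell and 27.8% were called in either direction. The median log2 fold change of the 27 was -1.77, beside 0.1 over all tested genes. The falls ran from 2.26-fold for Stard4 to 8.35-fold for Dhcr7, and 9 of them were over 4-fold: Hmgcs1, Idi1, Fdps, Cyp51, Tm7sf2, Msmo1, Nsdhl, Sc5d and Dhcr7. Both 2-week livers lay below both controls for 25 of the 27 genes, and no gene lay above them in both; of all tested genes, 30% lay below and 36.6% above. With scaling to total counts, which moved the median of all genes to 0.64, 14 of the 27 fell and none rose, and 84.2% of all calls were higher, against 54.4% with TMM. Without 2-week replicate 2, so that the remaining 2-week liver had the male pattern of the controls, 15 fell.

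After 4 weeks, 23 of the 27 genes fell and none rose by edgeR, where 15.7% of all tested genes fell and 33.8% were called in either direction. DESeq2 gave 24 lower and 0 higher, as did an unadjusted edgeR p under 0.05. The median of the 27 was -1.49, beside 0.18 over all tested genes. Every enzyme of synthesis fell except Mvd. The falls ran from 1.47-fold for Abca1 to 10.6-fold for Msmo1, and 10 were over 4-fold. All 3 livers lay below both controls for 22 of the 27, against 26.4% of all tested genes. Total-count scaling moved the median of all genes to 0.91 and the share of higher calls from 53.6% to 89.8%; with it 13 of the 27 fell and 1, Srebf2, rose. With the sex pattern as a term in the fit, which only the 2-week livers inform, 5 fell: Hmgcs1, Idi1, Cyp51, Tm7sf2 and Msmo1. The 18 calls lost in that fit had log2 fold changes from -0.29 for Insig1 to -3.24 for Fdps, among them -2.41 for Sc5d, -2.48 for Nsdhl, -1.73 for Ebp and -1.37 for Lss.

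With MYC, 16 of the 27 genes fell and 1, Soat2, rose. Of all tested genes, 8.56% fell, 9.76% rose and 18.3% were called in either direction. The median of the 27 was -1.23, beside 0.02 over all tested genes. The falls ran from 1.48-fold for Scap to 7.46-fold for Insig2, and 4 were over 4-fold: Msmo1, Sc5d, Insig1 and Insig2. All 3 MYC livers lay below both controls for 18 genes and above them for 1, against 26.2% and 26.8% of all tested genes. Total-count scaling moved the median of all genes to 0.43 and the share of higher calls from 53.3% to 81.5%, and 13 of the 27 then fell and 1 rose. Without MYC control replicate 2, 7 were called, all lower: Cyp51, Tm7sf2, Msmo1, Ebp, Sc5d, Insig1 and Insig2.

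**Figure D1:**
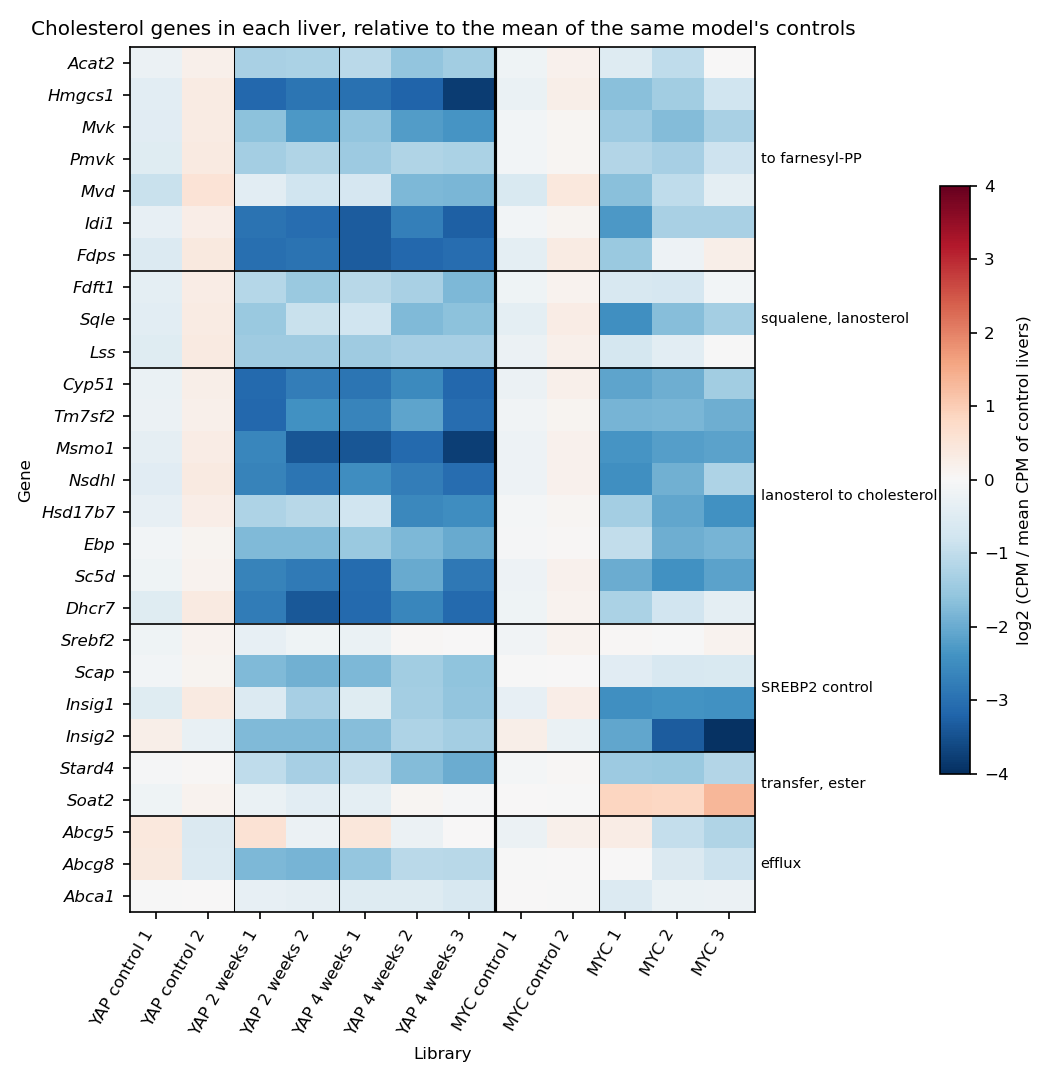
Level of each of the 27 genes (rows, grouped by role) in each of the 12 livers (columns), as the log2 ratio of its CPM to the mean CPM of the controls of its own model; blue is lower and red is higher. The 5 livers with YAPS127A are blue for nearly all enzymes. The 3 MYC livers are blue from Cyp51 to Sc5d, at Insig1 and Insig2, and also at genes such as Mvk, Idi1, Sqle and Stard4. Soat2 is red in all 3 MYC livers.

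The summed level of the 27 genes gives 1 value per liver, on the TMM scale. It was 5220 ± 1170 CPM in YAP controls (SD, n = 2), 1583 ± 126 after 2 weeks (n = 2) and 1493 ± 199 after 4 weeks (n = 3). For the MYC model it was 3982 ± 511 CPM in controls (n = 2) and 1705 ± 164 with MYC (n = 3). The highest liver with YAPS127A or MYC induced, at 1893 CPM, lay below the lowest control liver, at 3621 CPM. As a share of a library's counts, without TMM factors, the differences were smaller. The 27 genes took 0.326 and 0.448% in YAP controls, 0.163 and 0.175% after 2 weeks, and 0.186, 0.193 and 0.171% after 4 weeks. They took 0.287 and 0.362% in MYC controls and 0.155, 0.182 and 0.22% with MYC. Controls also differed among themselves: all 18 enzymes were higher in YAP control 2 than in YAP control 1, with a median ratio of 1.65, and all 18 were higher in MYC control 2 than in MYC control 1, with a median ratio of 1.28. Between the 2-week livers, 9 of the 18 were higher in replicate 2, with a median ratio of 0.998.

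The first steps, from acetyl-CoA to farnesyl diphosphate, were represented by 7 enzymes, of which 6 fell at 2 weeks, 6 at 4 weeks and 4 with MYC. Hmgcs1, the cytosolic HMG-CoA synthase (chromosome 13, 119690379 to 119708260), was at 614 and 1020 CPM in the YAP controls, 93.3 and 108 after 2 weeks, and 103, 88.9 and 58.6 after 4 weeks. Every induced liver was far below either control. Its log2 fold change was -3.01 ± 0.38 at 2 weeks (adjusted p = 0.00038) and -3.29 ± 0.33 at 4 weeks (adjusted p = 8.26e-05). In the MYC model Hmgcs1 was at 397 and 556 CPM in controls and 148, 183 and 276 with MYC, again without overlap, a log2 fold change of -1.23 ± 0.32 (adjusted p = 0.0223). This MYC call was lost with total-count scaling.

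Idi1, which interconverts the C5 isoprenoid building blocks, went from 96.6 and 146 CPM in YAP controls to 15.5 and 14.6 after 2 weeks and 12.2, 18.4 and 12.6 after 4 weeks. The 5 induced livers were close to each other and below both controls, with log2 fold changes of -3.01 ± 0.35 (adjusted p = 0.000263) and -3.07 ± 0.31 (adjusted p = 8.07e-05). With MYC it went from 50.4 and 58.7 to 11, 22.2 and 22.2 CPM, a log2 fold change of -1.56 ± 0.3 (adjusted p = 0.00594). Mvk, mevalonate kinase, fell by 1.93, 2.02 and 1.48 on the log2 scale in the 2-week, 4-week and MYC comparisons (adjusted p = 0.00207, 0.000625 and 0.00753). Pmvk, the phosphomevalonate kinase that follows it, fell by 1.28, 1.3 and 1.09 (adjusted p = 0.00424, 0.00167 and 0.00875). Mvd, which decarboxylates the product, passed in no comparison: it was at 15.5 and 42.2 CPM in YAP controls, 21.5 and 16.6 after 2 weeks, and 18, 8.26 and 8.18 after 4 weeks. The control livers of Mvd were far apart and overlapped the induced ones.

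Fdps, farnesyl diphosphate synthase, had the lowest level per length of the 27 genes in YAP controls, 3.83 ± 1.68 CPM per kb of exon (SD, n = 2), against 178 ± 62.5 for Hmgcs1 and 177 ± 26.9 for Sc5d at the top. Fdps was at 11.1 and 21.1 CPM in YAP controls, 1.98 and 2.09 after 2 weeks, and 1.59, 1.84 and 1.95 after 4 weeks. No induced liver came near a control, and the log2 fold changes were -2.98 ± 0.54 (adjusted p = 0.0025) and -3.16 ± 0.47 (adjusted p = 0.000662). With MYC, Fdps was at 2.14, 5.19 and 7.02 CPM against 4.51 and 7.41 in controls, overlapping, with a log2 fold change of -0.32 ± 0.46 (adjusted p = 0.681). Fdps counts are uncertain, since 1124 exonic bases are shared with Gm43738 on the same strand and Gm3571 matches it at 98.9% over 1062 bases. Acat2, the cytosolic thiolase of the first step, fell by 1.29 and 1.34 on the log2 scale at 2 and 4 weeks (adjusted p = 0.00997 and 0.0037) and had -0.44 ± 0.27 with MYC (adjusted p = 0.286). It matches Acat3 at 97.7% over 1477 bases, so reads could be split between them.

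Of the 3 enzymes that make squalene and lanosterol, 2 fell at 2 weeks, 3 at 4 weeks and 1 with MYC. Fdft1, squalene synthase, fell by 1.29 on the log2 scale at 2 weeks (adjusted p = 0.0091) and 1.37 at 4 weeks (adjusted p = 0.00293), and Lss, lanosterol synthase, fell by 1.42 and 1.35 (adjusted p = 0.00411 and 0.00225). With MYC, Fdft1 had -0.45 ± 0.27 (adjusted p = 0.27) and Lss -0.36 ± 0.25 (adjusted p = 0.351), and neither passed. Fdft1 shares 774 exonic bases with Ctsb on the opposite strand, and whether counting used strand is not stated in the sources used here. Sqle, squalene epoxidase, was at 42 and 67.9 CPM in MYC controls and 10, 17 and 21.3 with MYC. All MYC livers were below both controls, a log2 fold change of -1.77 ± 0.4 (adjusted p = 0.0148). In the YAP model Sqle was at 71.3 and 121 CPM in controls, 34 and 52.1 after 2 weeks and 54.8, 28 and 30.7 after 4 weeks, with log2 fold changes of -1.16 ± 0.45 (adjusted p = 0.077) and -1.35 ± 0.4 (adjusted p = 0.0252).

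Of the 8 enzymes from lanosterol to cholesterol, 7 fell at 2 weeks, 8 at 4 weeks and 7 with MYC. Msmo1, the methylsterol monooxygenase (chromosome 8, 64718139 to 64733792), was at 213 and 339 CPM in YAP controls, 45.3 and 25.6 after 2 weeks, and 26, 31.8 and 20.1 after 4 weeks. It was at 102 and 131 CPM in MYC controls and 22.5, 25.5 and 26.5 with MYC. The 3 MYC livers were close together, and no liver with YAPS127A or MYC induced overlapped a control of its model. Log2 fold changes were -2.96 ± 0.33 at 2 weeks (adjusted p = 0.000186), -3.41 ± 0.28 at 4 weeks (adjusted p = 3.73e-05) and -2.22 ± 0.28 with MYC (adjusted p = 0.000731). Cyp51, lanosterol demethylase, was at 323 and 455 CPM in YAP controls, 44.8 and 57.5 after 2 weeks and 51.1, 66.3 and 43.9 after 4 weeks, and it was at 226 and 311 in MYC controls and 62.7, 69.5 and 102 with MYC. Each group with YAPS127A or MYC induced lay below its controls, with log2 fold changes of -2.92 ± 0.31, -2.85 ± 0.27 and -1.79 ± 0.26 (adjusted p = 0.000163, 6.18e-05 and 0.00167).

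Sc5d, lathosterol oxidase, was among the most abundant of the 27 per length in both control groups. It was at 768 and 953 CPM in YAP controls, 135 and 121 after 2 weeks and 103, 212 and 118 after 4 weeks, so 4-week replicate 2 stood above its group while remaining far below the controls. In the MYC model it was at 482 and 621 CPM in controls and 138, 103 and 125 with MYC. The log2 fold changes were -2.75 ± 0.34, -2.58 ± 0.29 and -2.17 ± 0.29 (adjusted p = 0.000313, 0.00016 and 0.00106). Tm7sf2, a sterol reductase, went from 54 and 71.7 CPM to 7.16 and 11.7 after 2 weeks and 10, 14.7 and 7.56 after 4 weeks, and from 51.1 and 60.7 to 15.4, 15.7 and 14.5 with MYC. These levels did not overlap in either model (log2 fold changes -2.74 ± 0.32, -2.54 ± 0.27 and -1.88 ± 0.27, adjusted p = 0.000232, 0.000121 and 0.00151). Tm7sf2 shares 532 exonic bases with Vps51 on the same strand.

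Nsdhl, a dehydrogenase of the demethylation steps, fell by 2.78, 2.75 and 1.78 on the log2 scale in the 3 comparisons (adjusted p = 0.000806, 0.000307 and 0.00614). Ebp, the sterol isomerase, fell by 1.77, 1.75 and 1.54 (adjusted p = 0.00169, 7e-04 and 0.00323). Hsd17b7, a keto reductase of the same demethylation complex, had an uneven 4-week group, at 78.5, 22.8 and 24.1 CPM, against 109 and 163 in YAP controls and 58.1 and 63.1 after 2 weeks. Replicate 1 stood above the other 4-week livers. Hsd17b7 passed at 4 weeks (-1.7 ± 0.51, adjusted p = 0.0277) and with MYC (-1.88 ± 0.51, adjusted p = 0.031). At 2 weeks it had -1.17 ± 0.57 (adjusted p = 0.152).

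Dhcr7, whose enzyme reduces the last precursor to cholesterol, was called in the YAP model alone, and the difference between the models passed as well, as given further on. It was at 132 and 237 CPM in YAP controls, 26.6 and 17.6 after 2 weeks and 21.2, 30.1 and 21.4 after 4 weeks, without overlap (log2 fold changes -3.06 ± 0.37 and -2.93 ± 0.32, adjusted p = 0.000316 and 0.000142). In the MYC model it was at 84.8 and 106 CPM in controls and 39.4, 56.2 and 72.6 with MYC. The MYC livers were all lower but closer to their controls, and the log2 fold change of -0.77 ± 0.31 did not pass (adjusted p = 0.109).

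**Figure D2:**
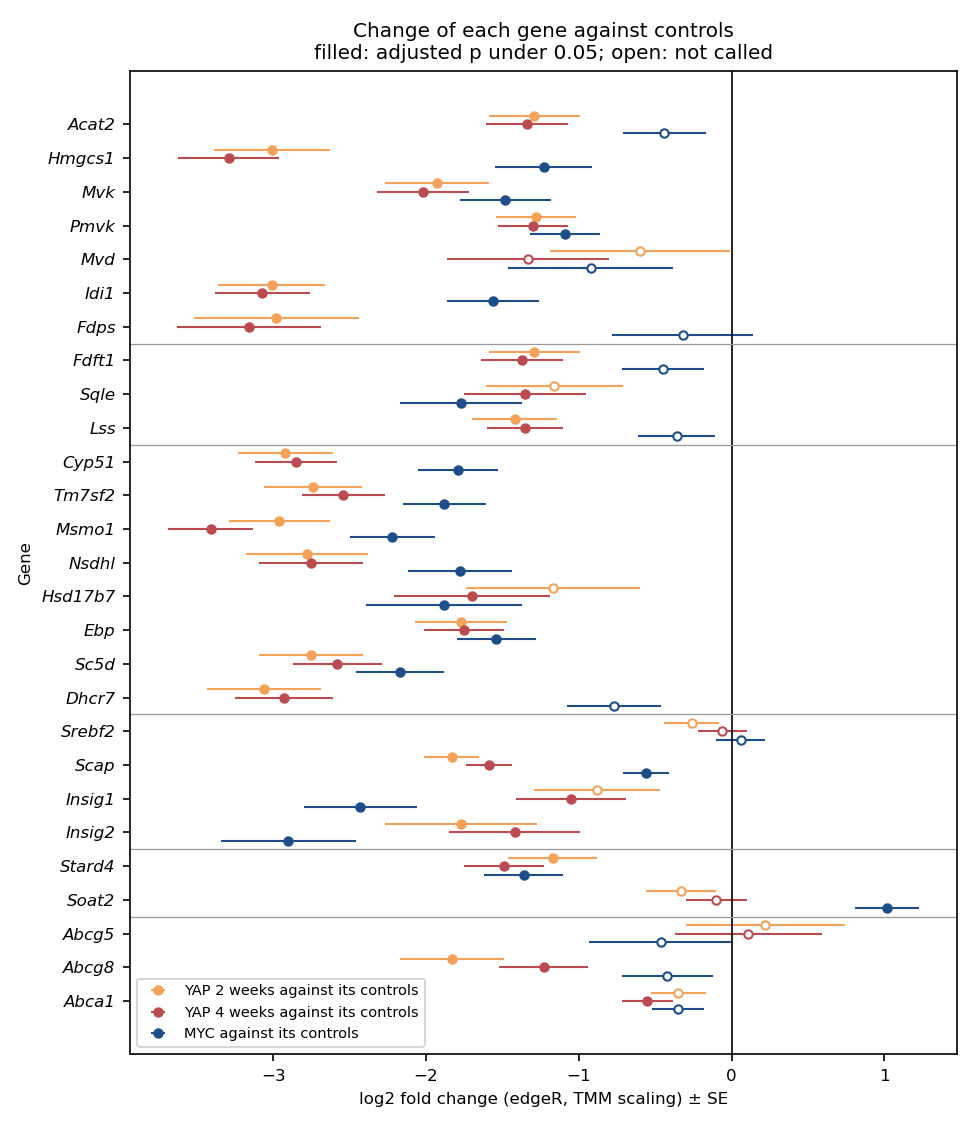
Log2 fold change (x axis, edgeR with TMM scaling, bars ± SE) of each of the 27 genes (y axis, grouped by role) against the controls of its model; filled points had an adjusted p under 0.05. YAP points at both times lie left of MYC points for Hmgcs1, Idi1, Fdps and Dhcr7, the MYC points of Insig1 and Insig2 lie furthest left of the 3, and Soat2 with MYC is the only filled point right of 0.

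In the SREBP2 control system, the gene of the factor itself passed in no comparison while its partners did. Srebf2 was at 77.1 and 95.7 CPM in YAP controls, 68.3 and 76.5 after 2 weeks and 72, 89 and 87.5 after 4 weeks. It was at 64.4 and 78.1 CPM in MYC controls and 72.9, 70.5 and 79 with MYC. The ranges of the 4-week and MYC groups overlapped their controls, whereas both 2-week livers were slightly below theirs. The log2 fold changes were -0.26 ± 0.18 (95% interval -0.64 to 0.13), -0.06 ± 0.16 (-0.41 to 0.29) and 0.06 ± 0.16 (-0.3 to 0.41), with adjusted p = 0.307, 0.798 and 0.85. With total-count scaling, the Srebf2 value at 4 weeks was 0.69 (adjusted p = 0.0258) and that at 2 weeks was 0.29.

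Scap, the escort of SREBP2, was at 120 and 138 CPM in YAP controls, 38.3 and 34.1 after 2 weeks and 36.8, 49.2 and 42.2 after 4 weeks. Induced livers were all far below the controls, with log2 fold changes of -1.83 ± 0.18 (adjusted p = 0.000101) and -1.59 ± 0.15 (adjusted p = 6.68e-05). In the MYC model Scap went from 113 and 117 to 84.4, 73 and 76.1 CPM, a smaller and still non-overlapping difference (-0.56 ± 0.15, adjusted p = 0.0277). That MYC call was lost with total-count scaling, where the value was -0.16.

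Both INSIG genes, whose products retain SREBP2 in the endoplasmic reticulum, fell with MYC. Insig1 was at 305 and 465 CPM in MYC controls and 69.8, 74 and 71.4 with MYC. The 3 MYC livers were nearly equal and below both controls, with a log2 fold change of -2.43 ± 0.37 (adjusted p = 0.00201). In the YAP model Insig1 was at 263 and 473 CPM in controls, 251 and 148 after 2 weeks and 265, 144 and 123 after 4 weeks. Replicate 1 of the 4-week livers overlapped a control, and log2 fold changes were -0.88 ± 0.41 (adjusted p = 0.127) and -1.05 ± 0.36 (adjusted p = 0.0443). The 4-week call of Insig1 held under 6 of 19 other settings. Insig2 was at 298 and 212 CPM in MYC controls and 60.3, 25.4 and 16.6 with MYC, all MYC livers far below, a log2 fold change of -2.9 ± 0.44 (adjusted p = 0.00262). In the YAP model Insig2 was at 111 and 76.2 CPM in controls, 27.8 and 27.3 after 2 weeks and 29, 39.6 and 36.3 after 4 weeks. It fell by 1.77 at 2 weeks (adjusted p = 0.0251) and 1.42 at 4 weeks (adjusted p = 0.0298) on the log2 scale.

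**Figure D3:**
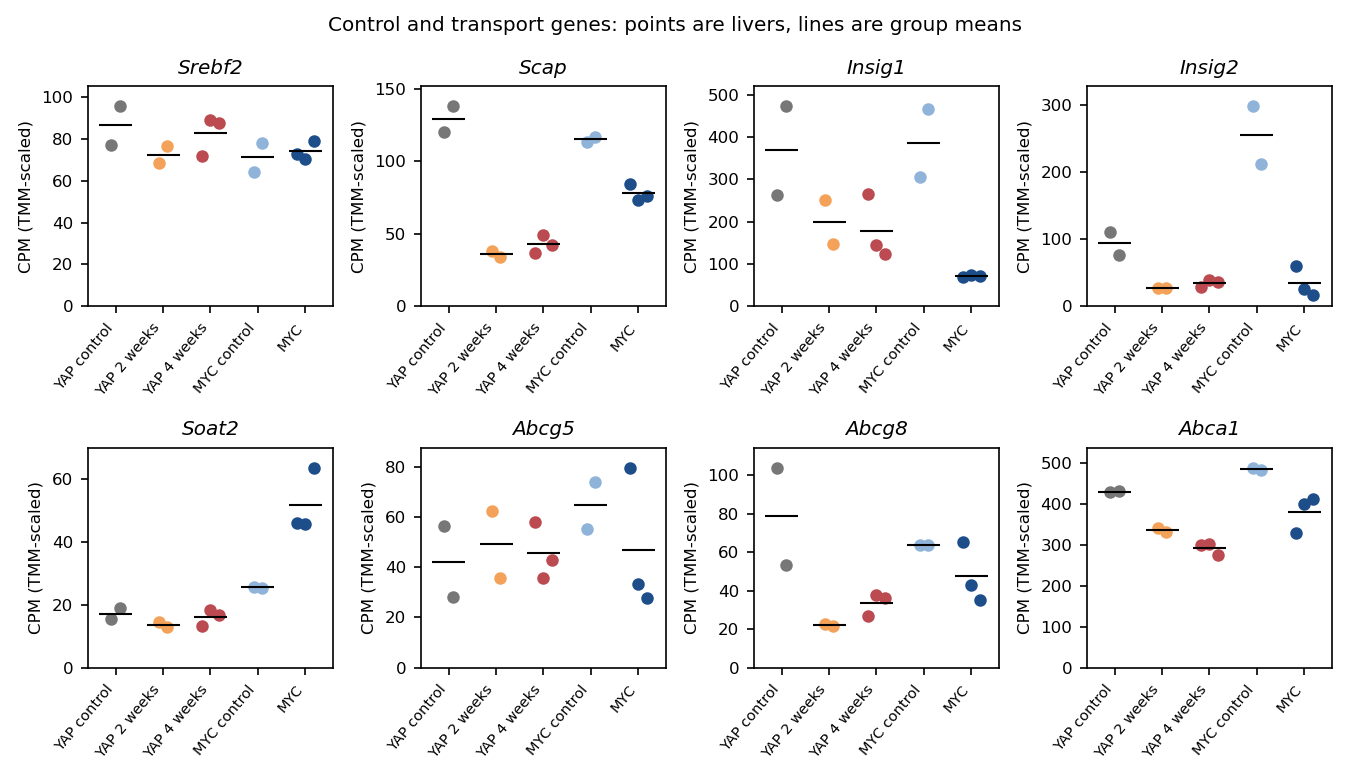
Level (y axis, CPM) of 4 control genes and 4 esterification or efflux genes in each liver (points), with group means (lines) for the 5 groups on the x axis. Srebf2 stays between 64.4 and 95.7 CPM in all livers, Insig1 sits between 69.8 and 74 CPM in the 3 MYC livers, and Soat2 is at 45.8 CPM or more in these and at most 25.8 CPM in all others.

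Of the 2 genes of transfer and esterification, Stard4, a soluble sterol carrier, was at 200 and 213 CPM in YAP controls, 102 and 81.7 after 2 weeks and 107, 61.6 and 52.1 after 4 weeks. In the MYC model it was at 201 and 219 CPM in controls and 77.1, 75.4 and 92.8 with MYC. All 3 groups with YAPS127A or MYC induced lay below their controls, with log2 fold changes of -1.17 ± 0.29, -1.49 ± 0.26 and -1.36 ± 0.26 (adjusted p = 0.0123, 0.00158 and 0.00559). Soat2, which esterifies cholesterol in hepatocytes, was at 25.8 and 25.3 CPM in MYC controls and 46.1, 45.8 and 63.7 with MYC. Every MYC liver was above both controls, a log2 fold change of 1.02 ± 0.21 (adjusted p = 0.00759), and the call was lost with a replicate block (adjusted p = 0.0511). In the YAP model Soat2 was at 15.4 and 19.1 CPM in controls, 14.5 and 13 after 2 weeks and 13.2, 18.3 and 16.7 after 4 weeks, with log2 fold changes of -0.33 ± 0.23 (adjusted p = 0.3) and -0.1 ± 0.2 (adjusted p = 0.735).

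Among the efflux transporters, Abcg5 and Abcg8, whose products pair to secrete sterols into bile, differed in their calls. Abcg8 was at 104 and 53.6 CPM in YAP controls, 22.7 and 21.6 after 2 weeks and 27.1, 37.6 and 36.4 after 4 weeks. All 5 induced livers were below both controls, and Abcg8 fell by 1.83 at 2 weeks (adjusted p = 0.00283) and 1.23 at 4 weeks (adjusted p = 0.00908) on the log2 scale. Abcg5 was at 56.2 and 28.1 CPM in YAP controls, 62.5 and 35.6 after 2 weeks and 58, 35.7 and 42.7 after 4 weeks. Its groups overlapped, with log2 fold changes of 0.22 ± 0.52 (adjusted p = 0.795) and 0.11 ± 0.48 (adjusted p = 0.885). The ratio of Abcg5 to Abcg8 counts within a library, which no scaling affects, was 0.539 (95% exact binomial interval 0.486 to 0.597) and 0.525 (0.451 to 0.61) in YAP controls. It was 2.75 and 1.65 after 2 weeks and 2.14, 0.95 and 1.17 after 4 weeks, above both controls in all 5 livers. With MYC it was 1.22, 0.777 and 0.792, against 0.867 and 1.16 in MYC controls, which overlapped. The intervals cover counting error only, and the genes share 82 exonic bases on opposite strands.

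With MYC, neither transporter passed: Abcg8 was at 63.8 and 63.9 CPM in controls and 65.2, 42.8 and 35.1 with MYC (-0.42 ± 0.3, adjusted p = 0.357), and Abcg5 had -0.46 ± 0.47 (adjusted p = 0.542). Abca1, which loads cholesterol onto apolipoprotein for high-density lipoprotein, was at 429 and 432 CPM in YAP controls, 343 and 333 after 2 weeks and 300, 304 and 276 after 4 weeks, with no overlap. The log2 fold change of Abca1 was -0.35 ± 0.18 at 2 weeks (adjusted p = 0.178) and -0.55 ± 0.17 at 4 weeks (adjusted p = 0.0251), and the 4-week value became 0.18 with total-count scaling. With MYC it was at 330, 402 and 412 CPM against 490 and 483 in controls (-0.35 ± 0.17, adjusted p = 0.167).

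Between 2 and 4 weeks of YAPS127A, none of the 27 genes was called by edgeR, none had an unadjusted p under 0.05, and DESeq2 called none. Of all tested genes, 0.0612% were called. For 19 of the 27, the 95% interval of the 4-week against the 2-week log2 value lay within 2-fold in either direction. The widest bounds were -1.91 for Mvd and 1.34 for Insig2. Abcg8 and Insig2 were higher in all 3 4-week livers than in both 2-week livers, and Fdps and Abca1 lower, 2 genes each way, where 10.8% and 10.1% of all tested genes did so. Without 4-week replicate 1, Hsd17b7 was lower at 4 weeks by 1.37 on the log2 scale (value -1.37, adjusted p = 0.0367), against -0.54 ± 0.51 with it (adjusted p = 0.854).

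The YAP and MYC comparisons share no library, and their calls are set beside each other here. Both come from the same fit, which shares the estimate of each gene's spread, so the calls are not fully independent. Of the 23 genes that fell at 4 weeks of YAPS127A and the 16 that fell with MYC, 16 fell in both, which is 69.6% of the former and 100% of the latter. Over all tested genes, 813 fell in both, which is 28.8% of those that fell at 4 weeks and 52.9% of those that fell with MYC. The 7 that fell at 4 weeks and did not pass with MYC were Fdps, Fdft1, Lss, Dhcr7, Acat2, Abcg8 and Abca1. Of the 19 that fell at 2 weeks, 13 also fell with MYC (68.4%, and 81.2% of the MYC list), beside 29.9% and 44.3% over all tested genes.

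Whether MYC and 4 weeks of YAPS127A differed in effect, each against its own controls, was tested in the same model. It was called for 5 of the 27 genes, all with a higher value for MYC, where 3.15% of all tested genes were called higher, 4.33% lower and 7.48% in either direction. The median difference over the 27 was 0.66, beside -0.07 over all tested genes. Fdps differed by 2.84 ± 0.66 (adjusted p = 0.0266), Dhcr7 by 2.16 ± 0.45 (adjusted p = 0.0173) and Hmgcs1 by 2.05 ± 0.47 (adjusted p = 0.023), each lower relative to controls with YAPS127A than with MYC. Scap differed by 1.03 ± 0.22 (adjusted p = 0.0187), and Soat2 by 1.12 ± 0.29 (adjusted p = 0.0386), the latter having risen with MYC and not passed with YAPS127A. The differences of Insig1 (-1.37 ± 0.52, adjusted p = 0.136) and Insig2 (-1.48 ± 0.62, adjusted p = 0.179) lay the other way and did not pass, and that of Idi1 was 1.51 ± 0.43 (adjusted p = 0.0566). With total-count scaling 3 of the 27 were called, 2 higher and 1 lower. None was called without YAP control 2, without either MYC control, with a replicate block, or with the sex pattern as a term, and 3 were called without 4-week replicate 3. In the fits without 1 library that ended a call, Dhcr7 differed by 1.68 without YAP control 2 (adjusted p = 0.0747), 2.01 without MYC control 1 (adjusted p = 0.0869) and 2.33 without MYC control 2 (adjusted p = 0.0696). Hmgcs1 differed by 1.64, 1.83 and 2.31 and Scap by 0.93, 1 and 1.06 without the same 3 controls. Fdps lost its call without these, 4-week replicate 3 or MYC replicate 2 (2.31 to 3.24), and Soat2 without any of the 4 controls, either 2-week liver, 4-week replicate 3 or MYC replicate 3 (0.95 to 1.26).

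**Figure D4:**
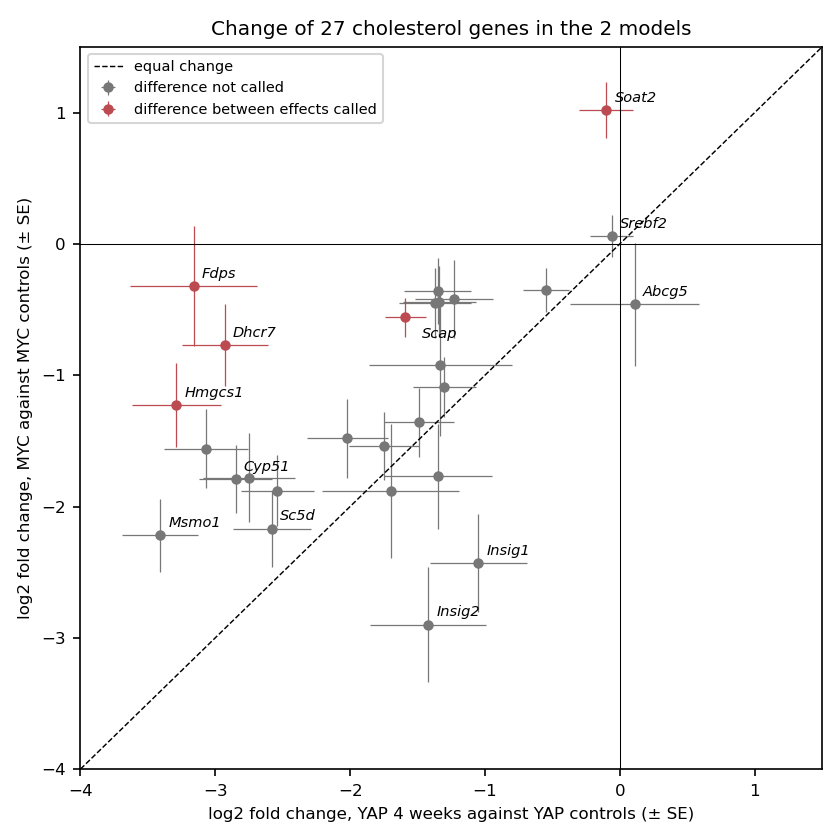
Log2 fold change of each of the 27 genes after 4 weeks of YAPS127A (x axis) and with MYC (y axis), each against its own controls, with bars of ± SE; the dashed line marks equal change and red points are the 5 genes whose difference had an adjusted p under 0.05. Hmgcs1, Fdps and Dhcr7 lie well above the line, Soat2 lies above 0 on the y axis, and Insig1 and Insig2 lie below the line.

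Several calls against controls were lost when a single library was left out. In some of these the value hardly changed. Insig2 at 2 weeks was at -1.77 in the full fit, and at -1.76 and -1.75 without 2-week replicates 1 and 2. At 2 weeks, Fdft1 and Stard4 were not called without YAP control 2 (-0.9 and -1.13, adjusted p = 0.0896 and 0.0608) or without 2-week replicate 2 (-1.12 and -1.02, adjusted p = 0.0793 and 0.0979). Acat2 was not called without YAP control 2 (-1.07, adjusted p = 0.0746) or either 2-week liver, and Insig2 was not called without YAP control 1 (-1.46, adjusted p = 0.127) or either 2-week liver. At 4 weeks, Abcg8 lost its call without YAP control 1 (-0.66, adjusted p = 0.154), Sqle without YAP control 2 (-0.91, adjusted p = 0.205) or replicate 2 or 3, and Insig1 without YAP control 2 (-0.56, adjusted p = 0.373) or replicate 2 or 3, or any 1 of the MYC-model libraries, which enter the fit through the shared spread. Abca1 lost its 4-week call without either control or replicate 3 (-0.51 to -0.55), Hsd17b7 without either control or replicate 2 or 3 (-1.39 to -1.95), and Insig2 without any 1 of the 5 libraries compared (-1.11 to -1.67). With MYC, Idi1 (-1.45), Mvk (-1.38), Pmvk (-1), Sqle (-1.38), Nsdhl (-1.57) and Stard4 (-1.3) lost their calls without MYC control 2, with adjusted p from 0.0519 to 0.127. Hmgcs1 lost its MYC call without either control or MYC replicate 2 (-0.97 to -1.46), Scap and Hsd17b7 without either control or MYC replicate 2 or 3 (-0.51 to -0.59 and -1.67 to -1.97; Hsd17b7 also without 2-week replicate 1, -1.85), and Soat2 without MYC control 1 or 2 (1.04 and 1.01, adjusted p = 0.0726 and 0.0752). All these values kept the sign of the full fit.

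Among other genes of sterol metabolism, 56 in 5 lists were examined, all listed by function. Their counts are read against the 12.7%, 15.7% and 8.56% of all tested genes that fell and the 15.1%, 18.1% and 9.76% that rose at 2 weeks, at 4 weeks and with MYC. Of 11 isoprenoid branch genes, which use farnesyl diphosphate for other products, 2 fell at 2 weeks, 3 at 4 weeks and 3 with MYC (18.2%, 27.3% and 27.3%), the first near the share of all genes. The list medians were -0.22, -0.16 and -0.11. Dhdds, which starts dolichol synthesis, fell by 0.9 at 2 weeks (adjusted p = 0.00209) and 0.63 at 4 weeks (adjusted p = 0.00651) on the log2 scale. Of 14 genes of SREBP processing and sterol-regulated degradation, 4 fell and 1 rose at 2 weeks, 6 fell and 1 rose at 4 weeks, and 3 fell with MYC, with medians of -0.53, -0.58 and -0.26. Tmem97, a sterol-responsive membrane protein, fell at 2 and 4 weeks, with log2 fold changes of -1.78 and -1.94 (adjusted p = 0.00177 and 0.00043). Mbtps1, the protease that makes the first cleavage of SREBP2, fell by 0.59 at 2 weeks (adjusted p = 0.0163).

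Of 8 LXR receptors and targets, the sterol-sensing counterpart of SREBP2, 2 rose and 1 fell at 2 weeks, 2 rose and 2 fell at 4 weeks, and 1 rose and 2 fell with MYC. The 12.5% that fell at 2 weeks was near the share of all genes, and with so few genes these counts say little about the list. Nr1h3, the LXR gene of hepatocytes and macrophages, fell by 1.12, 1.28 and 0.63 on the log2 scale (adjusted p = 0.00229, 0.000467 and 0.0319). Abcg1, an efflux transporter abundant in macrophages, rose from 11.8 ± 0.0765 CPM in YAP controls (SD, n = 2) to 48.9 ± 0.239 after 2 weeks (n = 2) and 24.9 ± 8.61 after 4 weeks (n = 3), and from 12.4 ± 0.542 CPM (n = 2) to 40.1 ± 5.79 with MYC (n = 3). Its log2 fold changes were 2.05 ± 0.27, 1.07 ± 0.25 and 1.69 ± 0.25 (adjusted p = 0.000497, 0.00796 and 0.00184). Macrophage markers moved the same way as a sum: the summed CPM of 10 such genes was 289 and 290 in YAP controls, 1440 to 1890 after 2 weeks and 467 to 1050 after 4 weeks, and 288 to 293 in MYC controls and 696 to 948 with MYC, with none of the 10 at 0 in any group. Of these 10 markers, 7 rose at 2 weeks, 4 at 4 weeks and 4 with MYC. Of all tested genes, 15.1%, 18.1% and 9.76% rose. The other markers were not called. Their part in the Abcg1 result was not tested.

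Of 17 genes of lipoprotein uptake and intracellular cholesterol traffic, 4 rose and 3 fell at 2 weeks, 5 rose and 4 fell at 4 weeks, and 2 rose and 4 fell with MYC. At 2 weeks this was 23.5% and 17.6%, near the shares of all genes. Scp2, the sterol carrier protein of peroxisomes and cytosol, went from 3410 ± 12.4 CPM in YAP controls (SD, n = 2) to 471 ± 152 after 2 weeks (n = 2) and 387 ± 52.2 after 4 weeks (n = 3), and from 3530 ± 317 CPM (n = 2) to 676 ± 176 with MYC (n = 3). No group with YAPS127A or MYC induced overlapped its controls. The log2 fold changes of Scp2 were -2.85 ± 0.33, -3.14 ± 0.28 and -2.38 ± 0.28 (adjusted p = 0.000215, 5.25e-05 and 0.000552). Gramd1c, of a family that moves cholesterol from the plasma membrane, fell at 2 and 4 weeks, with log2 fold changes of -3.16 and -2.74 (adjusted p = 0.000163 and 0.000105). Soat1, the esterifying enzyme found in most tissues and in macrophages, rose in all 3 comparisons, by 2.1 at 2 weeks (adjusted p = 0.00244), 1.16 at 4 weeks (adjusted p = 0.0254) and 1.42 with MYC (adjusted p = 0.0173), and the part of the macrophage markers in it was not tested. Of 6 factors that bind with SREBP at sterol promoters, Nfya rose by 1.66 and 1.63 at 2 and 4 weeks (adjusted p = 0.00365 and 0.00236) and Nfyb fell by 1.32 and 1.15 (adjusted p = 0.00336 and 0.00296). With MYC, the list median was 0.17.

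Markers of the cell types in the tissue also differed between groups. The summed CPM of 10 hepatocyte genes was 57500 to 67200 in YAP controls, 53500 to 69200 after 2 weeks and 23600 to 52500 after 4 weeks, and it was 85500 to 87100 in MYC controls and 17400 to 42300 with MYC. Alb, serum albumin, makes up most of this sum in YAP livers and had log2 fold changes of 0.44 ± 0.52 at 2 weeks (adjusted p = 0.568), -0.49 ± 0.47 at 4 weeks (adjusted p = 0.446) and -1.66 ± 0.47 with MYC (adjusted p = 0.032). Ttr, transthyretin, fell at 2 weeks (-2.43 ± 0.34, adjusted p = 0.000633) and 4 weeks (-2.37 ± 0.3, adjusted p = 0.000267) and had -0.89 ± 0.29 with MYC (adjusted p = 0.0553). Hnf4a, a hepatocyte transcription factor, had -0.56 ± 0.25 at 2 weeks (adjusted p = 0.122) and fell at 4 weeks (-0.76 ± 0.23, adjusted p = 0.0248) and with MYC (-0.86 ± 0.23, adjusted p = 0.024). Of the 10 hepatocyte genes, 3 fell at 2 weeks, 6 at 4 weeks and 3 with MYC, against 12.7%, 15.7% and 8.56% of all tested genes. Their medians were -1.23, -1.78 and -1.38. In every liver 8, 9 and 10 of them lay below both controls, against 30%, 26.4% and 26.2% of all tested genes. The summed CPM of 7 cholangiocyte genes was 150 to 159 in YAP controls, 643 to 1300 after 2 weeks and 504 to 3310 after 4 weeks. It was 41.9 to 45.7 in MYC controls and 39.8 to 56.6 with MYC. Of these 7, 3 rose at 2 weeks, 5 at 4 weeks and 0 with MYC, against 15.1%, 18.1% and 9.76% of all tested genes. Their median log2 fold changes were 1.91, 2.7 and -0.77. With MYC, 6 of the 7 had negative values and 0 fell, which the sum does not show. Skeletal muscle markers summed to 451 and 493 CPM in the 2-week livers and to 0.743 and 1.16 in YAP controls, where 7 of 10 were at 0. The summed CPM of 6 neutrophil genes was 1.49 to 4.64 in YAP controls, where 4 of the 6 were at 0, 15.6 to 174 after 2 weeks and 47.5 to 146 after 4 weeks, and 3.54 to 3.66 in MYC controls, where 2 were at 0, and 637 to 1310 with MYC. Of these 6, 3 rose at 2 weeks, 5 at 4 weeks and 6 with MYC, against 15.1%, 18.1% and 9.76% of all tested genes. Mitochondrially encoded genes took 19.3 and 19.6% of counts in YAP controls, 13.9 and 10.2% after 2 weeks and 11.7, 10 and 7.67% after 4 weeks. The part of hepatocytes, of these other cell types and of the mitochondrial share in the changes of the 27 genes was not tested.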

How the data were processed

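Total RNA of 12 mouse livers in 5 groups was sequenced. Per the labels' protocols, RNA was isolated with TRIzol and RNeasy columns, treated with DNase, and made into libraries with the Nugen Ovation Mouse system. The submitters' processing notes name HISAT2 2.1.0, Trim Galore 0.4.1, DESeq2 1.20.0, featureCounts 1.6.3 and GRCm38 (mm10), with no roles; the annotation release, strand setting and treatment of multiply mapping reads are not given in the sources used here. Each library has 1 deposited table of raw counts by gene symbol, with totals between 12511170 and 17690798 counts. 2 symbols on 4 lines were duplicated and left apart.

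Counts were fitted in edgeR 4.0.16 (R 4.3.3): filterByExpr (minimum count 10, minimum total 15), TMM scaling, 1 mean per group over 12 libraries, and the robust two-sided quasi-likelihood test with 7 residual degrees of freedom and Benjamini-Hochberg adjustment over 17964 genes. The fit was tested on simulated data. In the 5 groups, replicate counts differed by more than counting error. Alternatives were DESeq2 1.42.0, other scalings, no filter, only the groups compared, a replicate block, a sex pattern term and leaving out each library. Gene positions came from GENCODE vM21 on GRCm38, promoters from RefSeq on GRCm38.p6, and copies were sought with blastn at 95% identity over 200 bases.

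All 27 genes, and from each of 5 other lists up to 3 called genes with the smallest p per comparison with controls, could be named; 1 gene of the other lists is not reported here. Members and lists were chosen with earlier results of these data known, and the motif TCACNCCA was added after the sequences were seen.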

Additional observations from a re-analysis of the deposited data

Results flagged for a closer look

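For 5 of the 27 genes the effect of MYC differed from that of 4 weeks of YAPS127A by the test of the difference itself, in edgeR's quasi-likelihood model with adjustment over all tested genes. Hmgcs1, HMG-CoA synthase, differed by 2.05 ± 0.47 on the log2 scale (adjusted p = 0.023): its log2 fold change was -3.29 with YAPS127A and -1.23 with MYC. Fdps, farnesyl diphosphate synthase, differed by 2.84 ± 0.66 (adjusted p = 0.0266), with -3.16 and -0.32. Dhcr7, the last reductase of the pathway, differed by 2.16 ± 0.45 (adjusted p = 0.0173), with -2.93 and -0.77. Scap, the escort of SREBP2, differed by 1.03 ± 0.22 (adjusted p = 0.0187), with -1.59 and -0.56. Soat2, the cholesterol-esterifying enzyme of hepatocytes, differed by 1.12 ± 0.29 (adjusted p = 0.0386), with -0.1 and 1.02. In all 5 the MYC value was the higher. With a replicate block, or with the sex pattern as a term, 0 of the 27 were called. The calls also depended on single libraries, as given above. The models differ in age, alleles, route of induction and sex pattern, which cannot be told apart from the transgene.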

How the results depend on the processing

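For the 27 genes, DESeq2 called 20, 24, 17, 0 and 6 at 2 weeks, at 4 weeks, with MYC, between the times and in the difference between models, and relative log expression scaling called 19, 23, 17, 0 and 5, as the reported fit did. No low-count filter gave 18, 18, 15, 0 and 6, and fits of only the groups compared gave 21, 21, 17, 0 and 5. Total-count scaling gave 14 at 4 weeks (13 lower, 1 higher) and 3 in the difference, and a sex pattern term gave 5 at 4 weeks and 0 in the difference. Deviations of same-numbered libraries from their group means correlated between -0.03 and 0.08. In groups of 2 or 3 livers, whose deviations cancel out within a group, this cannot show whether replicate numbers pair the livers. With a replicate block the counts were 19, 19, 13, 0 and 0. Leaving out each library in turn gave 15 to 21, 18 to 23, 7 to 17, 0 to 1 and 0 to 7 called genes. Over all genes, the 6073 calls at 4 weeks became 3539 with the block and 240 with the sex term, the 4993 at 2 weeks became 2565 with the sex term, and the 3291 with MYC became 1514 with the block. The 1344 of the difference became 308 with the block, 65 with the sex term and 2482 with DESeq2, and the 11 between the times became 81, 42, 3, 2, 0 and 0 with DESeq2, no filter, total counts, the block, the sex term and only the groups compared. Leaving out 1 library gave 2445 to 5738, 3324 to 6348, 792 to 4192, 1 to 501 and 338 to 1868 calls over all genes in these 5 comparisons, with 792 and 872 for MYC without MYC controls 1 and 2 and 501 between the times without 4-week replicate 1. The cause of these shifts was not tested.

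Signs that changed were those of genes with no call in the reported fit, except Abca1 at 4 weeks. With total-count scaling, Srebf2, Soat2 and Abca1 were at 0.29, 0.2 and 0.18 at 2 weeks and at 0.69, 0.65 and 0.18 at 4 weeks, and Fdps, Lss and Abca1 were at 0.13, 0.07 and 0.07 with MYC. Without YAP control 2, Mvd and Abcg5 were at 0.3 and -0.2 at 2 weeks, and Srebf2, Abcg5 and Soat2 at 0.1, -0.31 and 0.07 at 4 weeks. Abcg5 was at -0.23 at 2 weeks without 2-week replicate 1. Without 4-week replicate 1, Srebf2, Abcg5 and Soat2 were at 0.03, -0.11 and 0.02 at 4 weeks. Soat2 was at 0.06 at 4 weeks with the sex term, Fdps at 0.04 and 0.09 with MYC without MYC replicate 1 and without MYC control 2, and Srebf2 at -0.08 with MYC without MYC control 1. Between these and other omissions the values ran from -1.14 to 0.3 for Mvd and -0.23 to 0.81 for Abcg5 at 2 weeks, from -0.31 to 0.7 for Abcg5 and -0.24 to 0.07 for Soat2 at 4 weeks, and from -0.71 to 0.09 for Fdps with MYC. Groups of 2 or 3 livers limit every comparison; fits without a library that leave a lone control assume that it varies like the other groups.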
